A study of Oryza sativa Japonica Group with 6 samples.

Results

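The genes described are 10 members of the PIN family of auxin efflux carriers in rice (Oryza sativa Japonica Group), taken by their locus identifiers from the 31010 genes of the deposited table. They are PIN1A (LOC_Os06g12610), PIN1B (LOC_Os02g50960), PIN1C (LOC_Os11g04190), PIN1D (LOC_Os12g04000), PIN2 (LOC_Os06g44970), PIN5A (LOC_Os01g69070), PIN5B (LOC_Os08g41720), PIN5C (LOC_Os09g32770), PIN9 (LOC_Os01g58860) and PIN10A (LOC_Os01g45550). The letters of several of these genes differ between nomenclatures, and the reference table of symbols gives PIN1C as a synonym on chromosome 6, where PIN1A lies here, so the locus identifies each gene. Of the 10 genes, 9 had a reference gene of the same symbol or synonym on the chromosome named in the locus identifier, and PIN1D was not found.

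RNA-seq was made from root tips of about 0.8 cm of 7-day seedlings. One group was wild type, cultivar ZH11 (Zhonghua 11), and the other plt345, labelled a triple mutant of PLT3, PLT4 and PLT5, with 3 libraries each. Both groups were untreated and grew under the same conditions, with 14 h light at 28 °C and 10 h dark at 24 °C. The labels do not state the kind of mutation, how many plants went into a library, or whether libraries of a genotype came from separate plants, so the p-values speak only to library-to-library spread, part or all of which may be technical.

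PIN proteins sit in cell membranes and move the hormone auxin out of the cytosol. Those with a long central loop lie on 1 side of the plasma membrane and so set the direction in which auxin flows through a tissue, while short-loop members such as PIN5 lie in the endoplasmic reticulum in Arabidopsis and move auxin within the cell. In the Arabidopsis root, PIN2 carries auxin from the tip back up through the outer layers. The PLETHORA (PLT) factors of Arabidopsis are induced along the resulting auxin gradient and are needed for normal PIN expression in the root meristem.

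Reads counted on genes were between 20759896 and 21309371 per library. Of the mutated genes, PLT3 was at 579.5 ± 5.92 normalized counts in wild type and 576.4 ± 19.8 in plt345 (SD, n = 3), PLT4 at 269.8 ± 19.8 and 231.4 ± 13.0, and PLT5 at 531.2 ± 28.9 and 1268 ± 9.02. Since mutation need not remove a transcript, such levels are no test of the genotype labels. All 6 root markers were read in every library, and their sum lay at 59036 to 64405 normalized counts in wild type and 30084 to 31036 in plt345. Most of that sum was RCc3, which went from 58836 ± 2635 to 28035 ± 558, so its fall is mainly that of RCc3. Of the 6 markers, QHB of the quiescent centre rose 4.60-fold. SCR1 and SCR2 rose only 1.20-fold and 1.22-fold (limma adjusted p = 0.0103 and 0.00181). In the authors' deposited DESeq2 result SCR1 did not pass (adjusted p = 0.0685) and SCR2 did (adjusted p = 0.0192). RCc3 and the endodermal gene CASP1 (2159 ± 67.4 to 1577 ± 64.1, limma adjusted p = 1.40e-10) fell, and SHR1 did not pass. Summed over the 5 photosynthetic shoot genes in the table, wild type libraries held 61.4 to 68.1 and plt345 libraries 19.6 to 34.6. That fall lay in CAB1R (43.2 ± 3.11 to 3.56 ± 1.98), while CAB2R and an RBCS gene (LOC_Os12g19470) overlapped between genotypes. The other two RBCS genes had more reads in plt345, LOC_Os12g19381 with 1 against 15 and LOC_Os12g17600 with 0 against 4. Of the shoot meristem and organ list, 3 genes were in the table, with sums of 43.0 to 52.9 and 242 to 272. Its single tested gene OSH15 rose 5.62-fold, from 44.9 ± 4.97 to 252 ± 17.6 (limma adjusted p = 2.49e-15), and made up most of that sum. The others were barely read, OSH1 with 0 reads in wild type against 2 in plt345 and YAB1 with 7 against 16. All 10 markers of dividing cells fell, their sum lying at 13544 to 13774 in wild type and 10554 to 10682 in plt345. All 5 genes listed for differentiated root (LSI1, LSI2, CESA4, CESA7 and CESA9) rose, with sums of 3893 to 3986 and 10706 to 10968. Most of that rise lay in LSI1 (1132 ± 10.0 to 4417 ± 128) and LSI2 (540 ± 14.8 to 2545 ± 47.2). Beside these marker counts, 34.0% of all tested genes were called higher and 34.0% lower. These marker shifts stand beside every PIN change below, and their part in it was not tested. In whole root tips, fewer cells of a type and less RNA per cell cannot be told apart.

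Of the 5 PIN genes with a wild type mean of at least 10 normalized counts, 3 fell and 2 rose in plt345. PIN1A, PIN1B and PIN2, at 3761 or more in every wild type library, fell. PIN1C and PIN1D, between 38.6 and 179 in wild type, rose. PIN9, PIN5B and PIN10A, at 6.14 or fewer in every wild type library, were also called higher. PIN5A and PIN5C were also higher in plt345 but lay just below the mean of 10 normalized counts set for testing, at 9.96 and 9.44 over the 6 libraries. The test was limma-trend on log2(normalized count + 1), with p-values adjusted by Benjamini-Hochberg over all 23166 tested genes and a threshold of 0.05. Log2 fold changes below are plt345 over wild type on that scale, with the standard error of the fit.

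Of the 8 tested PIN genes, 5 were higher and 3 lower in plt345. Of all tested genes, 34.0% were higher and 34.0% lower, and 68.0% were called in either direction, so a call by itself is common in these libraries. Changes of at least 2-fold were less common, at 13.8% of tested genes higher and 2.97% lower. PIN5B, PIN10A and PIN9 were in the first class. These 3 genes had a wild type mean below 10 and reached the tested set only through plt345, so they could enter it only by being higher, and their calls are no support for a direction of the family. The median log2 fold change of the tested genes turned with them, from 0.85 over all 8 to -0.27 over the other 5, beside -0.01 over all tested genes. In all 8 tested PIN genes the libraries of the genotypes did not overlap, as in 71.0% of all tested genes. Those 8 include the 3 tested only through plt345. The untested PIN5A and PIN5C did not overlap either.

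**Figure D1:**
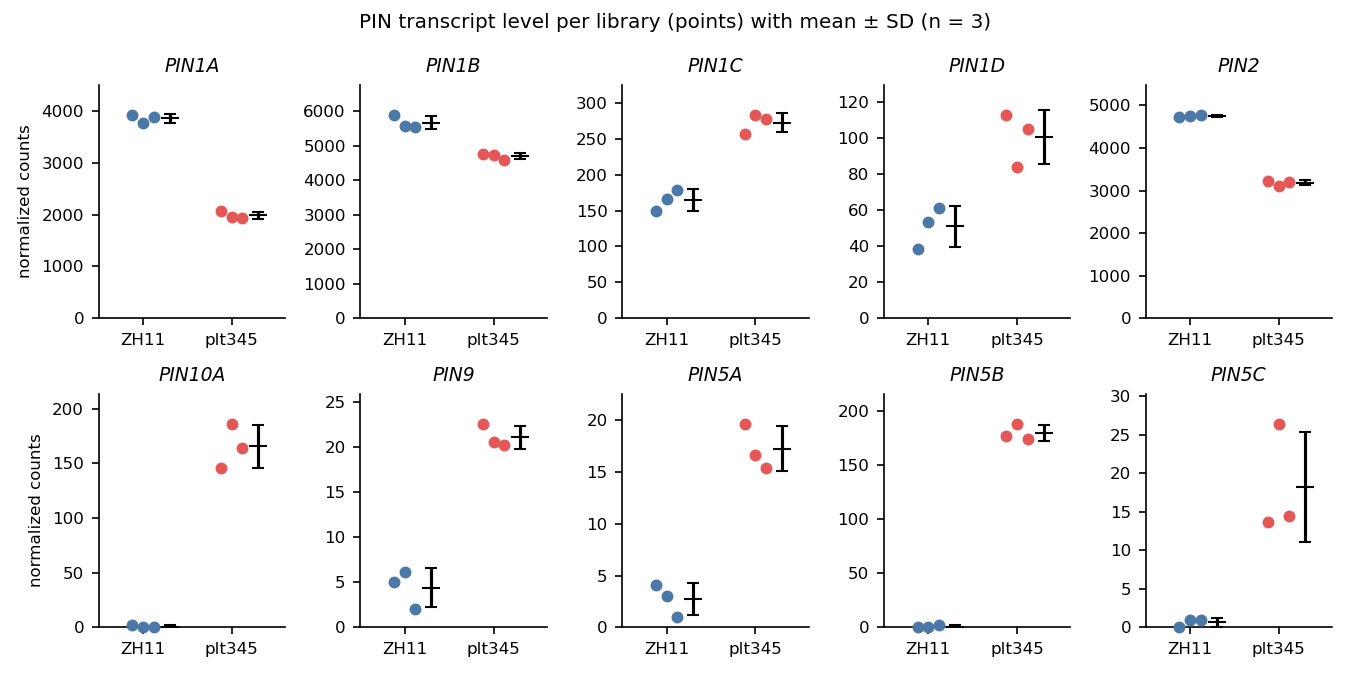
Normalized counts of the 10 PIN genes in each of the 6 libraries, with a separate linear axis from 0 for each gene. Points are libraries and bars the mean ± SD of 3 libraries. In PIN1A, PIN1B and PIN2 all wild type libraries lie above all plt345 libraries, and in the other 7 genes all lie below.

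PIN1A is a long-loop gene. Its wild type libraries held 3916, 3761 and 3879 normalized counts and its plt345 libraries 2059, 1946 and 1941. The lowest wild type library was thus far above the highest plt345 library, and the spread within each genotype was small. The mean went from 3852 ± 81.1 to 1982 ± 66.7, a 1.94-fold fall whose log2 value was -0.96 (SE 0.03, limma adjusted p = 2.66e-18). It ranked 751 from the lowest among the log2 fold changes of the 23166 tested genes.

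PIN1B, also known as REH1, is another long-loop gene that fell. It was at 5888, 5565 and 5540.1 in wild type and at 4751, 4725 and 4589 in plt345. The groups were separate here too, but by a smaller step. Its mean went from 5664 ± 194 to 4688 ± 87.1, a 1.21-fold fall whose log2 value was -0.27 (SE 0.03, limma adjusted p = 2.59e-08).

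PIN2 acts in the bending of roots toward gravity in Arabidopsis and rice. Its libraries were at 4735, 4756 and 4774 in wild type and at 3225, 3112 and 3209.7 in plt345. The wild type libraries lay close together, with an SD of 19.5 or 0.410% of the mean, the smallest such percentage among the PIN genes in wild type. The fall was 1.49-fold, with means of 4755 ± 19.5 and 3182 ± 61.1 and a log2 value of -0.58 (SE 0.03, limma adjusted p = 7.47e-15).

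PIN1C and PIN1D, also long-loop genes, went the other way. They lie near the ends of chromosomes 11 and 12, in a block known to be duplicated between these chromosomes in rice, and how the counting treated reads that match both copies is not given in the sources used here. Values of this pair are uncertain to that extent. PIN1C was at 149, 166 and 179 in wild type and at 257, 283 and 277 in plt345, a rise of 1.65-fold (log2 fold change 0.72, SE 0.09, limma adjusted p = 8.26e-08). PIN1D was at 38.6, 53.2 and 61.4 in wild type and at 113, 84.1 and 105 in plt345, a rise of 1.97-fold (log2 fold change 0.98, SE 0.17, limma adjusted p = 1.40e-05). In both genes every plt345 library was above every wild type library, and PIN1D had the wider spread. The ratio of PIN1D to PIN1C counts overlapped between genotypes, at 0.307 ± 0.0438 in wild type and 0.372 ± 0.0709 in plt345 (exact permutation test, two-sided, p = 0.3).

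PIN10A, listed as PIN3A and OsPIN3t in the reference table, is a long-loop PIN and was nearly unread in wild type. Its wild type libraries held 2, 0 and 0 reads, where 0 reads allow up to 3.07 normalized counts. The plt345 libraries were at 146, 186 and 164 normalized counts. Every plt345 library was therefore well above the limit that 0 reads allow. The 510 reads in plt345 against 2 in wild type gave a depth-scaled ratio of 243, with a 95% exact binomial interval of 67.0 to 2013 that covers counting error only. The limma estimate was 6.84 on the log2 scale (SE 0.36, adjusted p = 6.70e-15), a value that depends on the pseudocount. The second gene of this class, PIN10B (LOC_Os05g50140), named by nomenclature and outside the 10 genes, was at 15.3, 11.3 and 10.2 in wild type and 12.7, 16.6 and 13.5 in plt345. These libraries overlapped, and PIN10B did not pass (log2 fold change 0.22, 95% interval -0.41 to 0.84, limma adjusted p = 0.542).

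Among the short-loop PIN5 genes, PIN5B showed the widest change. In rice, raised PIN5B expression is known to alter plant architecture and yield. Wild type libraries held 0, 0 and 2 reads of PIN5B, and plt345 libraries were at 176, 188 and 174 normalized counts. The plt345 libraries were close to each other, at 179 ± 7.37. The ratio of 553 to 2 reads was 264 after depth scaling, with a counting interval of 72.6 to 2182, and the limma log2 fold change was 6.96 (SE 0.35, adjusted p = 3.34e-15). By log2 fold change PIN5B ranked 39 and PIN10A 43 from the highest of all tested genes. With 2 wild type reads in each gene, both values depend on the pseudocount. Both genes were also tested only through plt345, so these ranks describe the values and are no support.

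PIN5A and PIN5C had few reads in either genotype. PIN5A was at 4.07, 3.07 and 1.02 normalized counts in wild type and at 19.6, 16.6 and 15.4 in plt345, 6.33 times the wild type mean. PIN5C was at 0, 1.02 and 1.02 in wild type and at 13.7, 26.4 and 14.4 in plt345, with 2 reads against 56 and a depth-scaled ratio of 26.7 (counting interval 7.05 to 226). For PIN5C 1 plt345 library stood above the other two, and the genotypes were still separate. When all 31010 listed genes were tested, with no filter, both passed, PIN5A at 2.39 on the log2 scale (SE 0.39, limma adjusted p = 2.69e-04) and PIN5C at 3.52 (SE 0.42, limma adjusted p = 2.39e-05). In that fit 29.7% of all genes were called higher. PIN8 (LOC_Os01g51780), another short-loop PIN outside the 10 genes and named by nomenclature, was at 1.02, 4.09 and 1.02 in wild type and 20.6, 7.83 and 15.4 in plt345. It passed in the same unfiltered fit, at 2.41 on the log2 scale (SE 0.47, limma adjusted p = 0.00106).

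PIN9 belongs to a PIN class described in monocots. It was at 5.08, 6.14 and 2.05 normalized counts in wild type and 22.6, 20.5 and 20.2 in plt345. The plt345 libraries lay close together and well above the highest wild type library. With means of 4.42 ± 2.12 and 21.1 ± 1.27 it rose 4.77-fold (limma log2 value 2.12, SE 0.37, adjusted p = 1.55e-05), on 13 reads against 65.

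**Figure D2:**
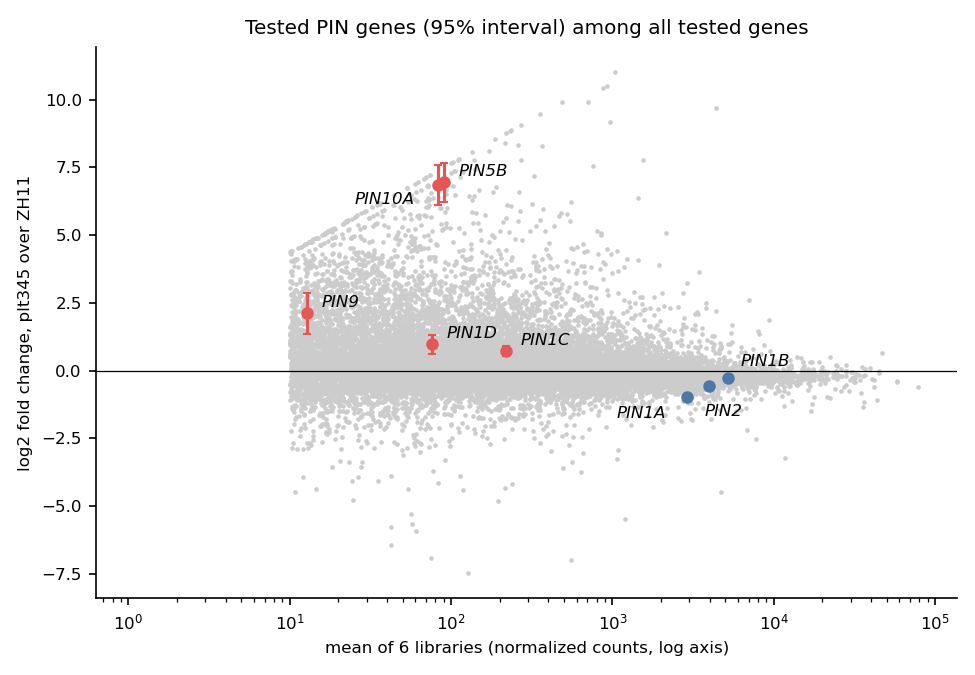
Log2 fold change between genotypes, plt345 over wild type (y axis), against the mean of the 6 libraries in normalized counts (x axis, log scale) for all 23166 tested genes in grey and the 8 tested PIN genes in colour, with the 95% interval of the limma fit. PIN5B and PIN10A lie near the upper edge at 6.96 and 6.84, PIN9, PIN1D and PIN1C lie above 0, and PIN1B, PIN2 and PIN1A lie below 0 at the high-count end.

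The order of the tested PIN genes by log2 fold change, from highest to lowest, was PIN5B, PIN10A, PIN9, PIN1D, PIN1C, PIN1B, PIN2 and PIN1A. The intervals of PIN5B (6.23 to 7.68) and PIN10A (6.10 to 7.58) overlapped, as did those of PIN1D (0.63 to 1.32) and PIN1C (0.54 to 0.91). Those of PIN1B (-0.34 to -0.21), PIN2 (-0.64 to -0.52) and PIN1A (-1.03 to -0.89) were apart from each other. The difference between 2 genes' responses was then taken within libraries for 6 pairs, chosen after their values were seen. PIN1A fell more than PIN1B by 0.69 on the log2 scale, and the PIN1A to PIN1B count ratio was 0.680 ± 0.0179 in wild type against 0.423 ± 0.0108 in plt345. PIN1A exceeded PIN2 in its fall by 0.38 on the log2 scale, and PIN2 exceeded PIN1B by 0.31. None of these 3 ratios overlapped between genotypes, nor did that of PIN10A to PIN10B. The result for PIN10A to PIN10B was fixed beforehand, since PIN10A had 2 reads in wild type and was tested only through plt345. For these 4 pairs the two-sided exact permutation p was 0.1, the smallest that 3 against 3 libraries allow, and 0.15 after adjustment over the 6 pairs. As the pairs were chosen after their values were seen, these p-values restate the values and are no support. PIN5B and PIN10A differed by 0.12 in their log2 fold changes, with overlapping libraries (exact permutation p = 0.7). Both genes had only 2 reads in wild type, all in 1 library, which was not the same for both. The wild type differences between them thus rest on these few reads. That test therefore could not decide whether PIN5B and PIN10A responded alike.

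Summed over the 10 genes, PIN counts were lower in plt345. They were 14738, 14311 and 14439 in the wild type libraries and 10783, 10587 and 10509.9 in the plt345 libraries. The genotypes did not overlap, and the sum was 1.36-fold lower in plt345 (two-sided exact permutation p = 0.1, the smallest possible). As a share of all reads on genes, the same sum was 0.0672% ± 0.000788 in wild type and 0.0523% ± 0.000545 in plt345, 1.28-fold lower. Counts grow with transcript length, and transcript lengths were not used here, so sums and shares describe reads, and no order of levels between genes is given.

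PIN1A, PIN1B and PIN2, grouped after their values were seen, accounted for 98.4% ± 0.182 of the PIN counts in wild type and 92.7% ± 0.331 in plt345 (SD, n = 3). They are also the 3 genes that fell, so these shares restate the values of single genes and were not tested. By loop class, the 7 long-loop genes summed to 14492 ± 219 in wild type and 10412 ± 142 in plt345, 1.39-fold lower. That sum follows PIN1A, PIN1B and PIN2, while the long-loop genes PIN1C, PIN1D, PIN9 and PIN10A were each higher in plt345. The genes of the long-loop class thus did not share a direction. The 3 short-loop genes together were at 4.07, 4.09 and 4.09 in wild type and at 210, 231 and 204 in plt345. Their share of the PIN counts was 0.0282% ± 0.000515 in wild type and 2.02% ± 0.138 in plt345. In wild type PIN5A, PIN5B and PIN5C had only 8, 2 and 2 reads over the 3 libraries. The closeness of the wild type sums and the small SD of the share therefore leave out the counting error of so few reads. Most of the short-loop counts in plt345 were those of PIN5B, at 179 of 215. The sums of both classes and the short-loop share did not overlap between genotypes, and each had a two-sided exact permutation p of 0.1.

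**Figure D3:**
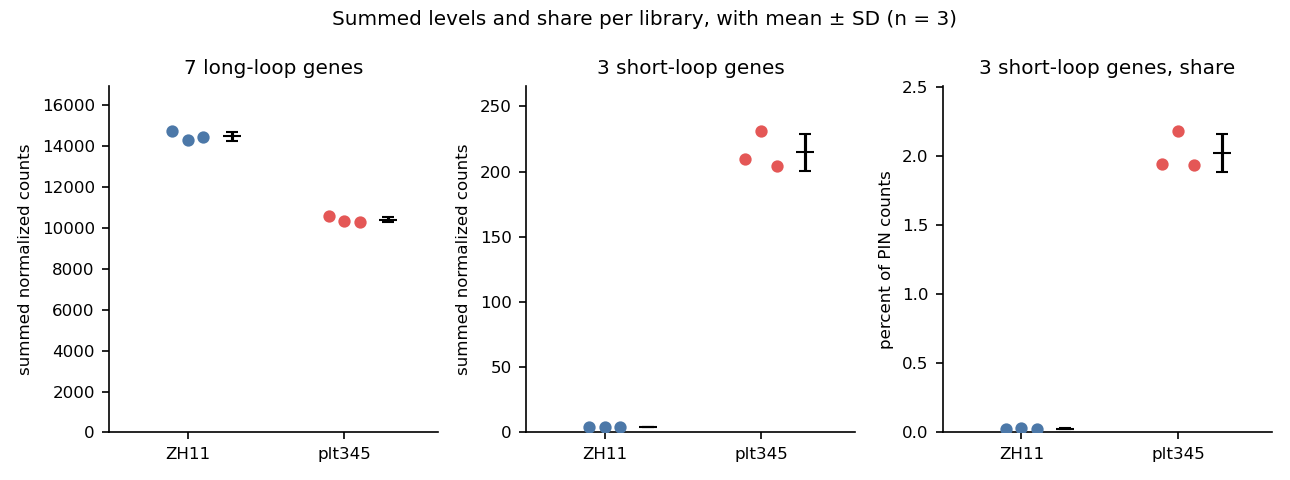
Summed normalized counts of the 7 long-loop PIN genes (left) and of the 3 short-loop PIN genes (middle), and the percentage of all PIN counts that the short-loop genes held (right), in each of the 6 libraries. Points are libraries, bars the mean ± SD of 3 libraries, and axes start at 0. The left values are lower in all 3 plt345 libraries, and the middle and right ones higher. The left sum is led by PIN1A, PIN1B and PIN2, while the long-loop genes PIN1C, PIN1D, PIN9 and PIN10A were each higher in plt345.

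Other genes of auxin transport were read from a list of 8. Of these 3 rose, 4 fell and 1 did not pass, beside 34.0% of all tested genes in each direction. Besides PID, the loci of this list rest on nomenclature, since the reference table does not hold their symbols. Influx carriers of the AUX and LAX type, which bring auxin into cells, moved both ways. LOC_Os10g05690 fell 2.29-fold, from 2135 ± 68.5 to 933 ± 28.3, and LOC_Os11g06820 fell 1.81-fold, from 1414 ± 37.0 to 782 ± 28.4 (limma adjusted p = 7.95e-19 and 4.54e-15). LOC_Os05g37470 rose 2.45-fold, from 80.6 ± 4.34 to 197 ± 17.8, and LOC_Os03g14080 rose 2.12-fold, from 184 ± 18.0 to 389 ± 23.1 (limma adjusted p = 1.79e-10 and 1.46e-11). The 5 carrier genes, AUX1 included, summed to 8471 ± 288 in wild type and 6381 ± 26.2 in plt345, 1.33-fold lower with no overlap (exact permutation p = 0.1).

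Among genes that act on PIN proteins, PID (LOC_Os12g42020) encodes a kinase that in Arabidopsis phosphorylates PIN proteins and shifts the side of the cell on which they lie. It was at 90.5, 54.2 and 71.6 in wild type and at 328, 324 and 290.4 in plt345, with no overlap. PID rose 4.36-fold (log2 fold change 2.14, SE 0.13, limma adjusted p = 1.87e-13). GNOM1 (LOC_Os03g46330), whose Arabidopsis counterpart acts in membrane traffic of PIN proteins, fell 1.21-fold, from 377 ± 17.5 to 311 ± 8.20 (limma adjusted p = 7.65e-04). ABCB14 (LOC_Os04g38570), an auxin transporter of the ABC family, was at 2038 ± 59.6 and 2118 ± 103 and did not pass (log2 fold change 0.05, 95% interval -0.03 to 0.13, limma adjusted p = 0.221).

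Auxin synthesis genes of the YUC and TAA1 type were described by counts from a list of 11, of which 9 were in the table and 8 were tested. Of these 5 rose, among them YUC1, which had 2 reads in wild type and was tested only through plt345, and 3 fell. Of all tested genes 34.0% were higher and 34.0% lower. YUC9 (LOC_Os01g16714) rose 1.89-fold, from 323 ± 10.5 to 610 ± 29.7, and YUC4 (LOC_Os01g12490) rose 3.96-fold, from 19.7 ± 0.624 to 78.2 ± 5.59. YUC7 (LOC_Os04g03980) fell 5.48-fold, from 960 ± 33.0 to 175 ± 15.1, and YUC8 (LOC_Os03g06654) fell 1.47-fold, from 140 ± 12.8 to 94.8 ± 12.5. These 4 had the smallest limma adjusted p in their direction (8.48e-13, 1.03e-09, 9.55e-21 and 2.90e-04).

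**Figure D4:**
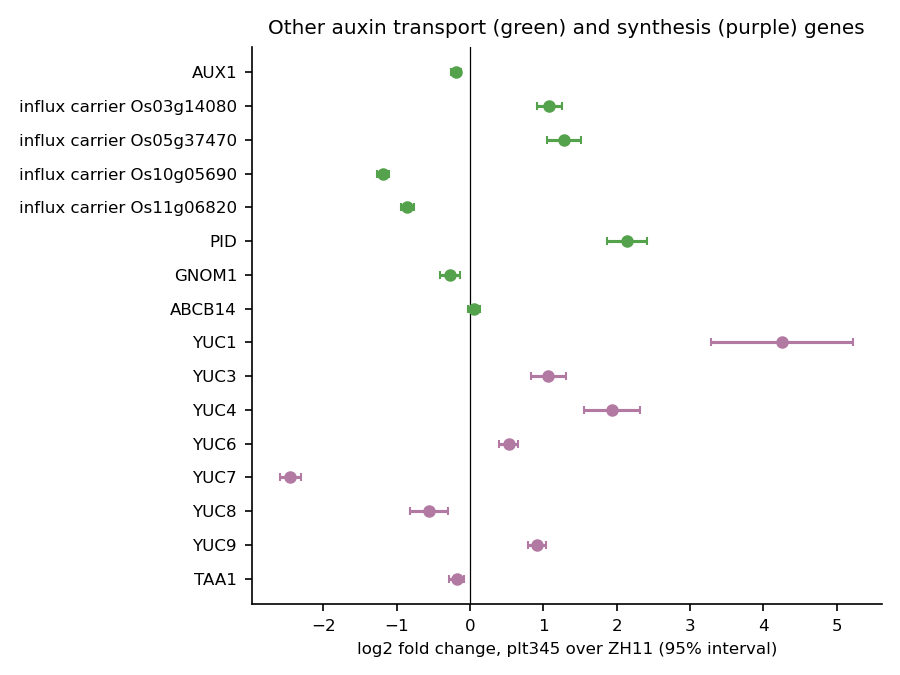
Log2 fold change between genotypes, positive where plt345 was higher, with the 95% interval of the limma fit for the 8 tested genes of the auxin transport list (green) and the 8 tested genes of the synthesis list (purple). PID and YUC1 lie farthest to the right of their colours, and LOC_Os10g05690 and YUC7 farthest to the left.

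The loci listed next to each PIN gene were read as well, 3 on each side in the order of locus numbers, after the PIN values were known. The sources used here give no names for them. Of 60 such loci 50 were tested, and 20 (40.0%) were higher and 12 (24.0%) lower, beside 34.0% of all tested genes in each direction. A call of 2-fold or more was made for 9 of the 50 upward and for 1 downward, beside the 13.8% and 2.97% of all tested genes given above. Neighbours did not always go the way of their PIN gene. Around PIN1A, PIN1B and PIN2 no tested neighbour was called higher, and 3, 2 and 2 were lower, none by 2-fold. Near PIN1C, PIN1D, PIN5B and PIN10A the called neighbours, 3, 2, 3 and 4, were all higher. Near PIN5C, itself higher in plt345, none was called higher and 3 were lower, among them LOC_Os09g32760 with a log2 fold change of -0.83. PIN5A had 5 higher and 1 lower, and PIN9 had 3 higher and 1 lower.

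Changes of at least 2-fold lay near PIN1D, PIN5A, PIN5B, PIN9 and PIN10A. The 3 loci after PIN5B rose. LOC_Os08g41730 went from 115 ± 14.6 to 506 ± 5.43, LOC_Os08g41750 from 2.38 ± 1.18 to 32.1 ± 4.40, and LOC_Os08g41760 from 7.15 ± 3.70 to 21.1 ± 3.97. The 3 loci before it did not pass, with log2 fold changes of -0.06, -0.19 and 0.01. The locus after PIN10A, LOC_Os01g45570, had 1 read in wild type as a whole against 236 in plt345, where its mean was 76.6 ± 11.0 normalized counts. The locus before it, LOC_Os01g45530, was at 524 ± 53.0 and 529 ± 7.05 and did not pass (limma adjusted p = 0.788), while LOC_Os01g45510, farther on that side, rose from 16.3 ± 3.07 to 69.5 ± 7.88. Like PIN5B and PIN10A themselves, 3 of these loci (LOC_Os08g41750, LOC_Os08g41760 and LOC_Os01g45570) had a wild type mean below 10 and were tested only through plt345. After PIN9, LOC_Os01g58890 rose from 692 ± 36.3 to 2912 ± 58.9 and LOC_Os01g58910 from 598 ± 13.3 to 1627 ± 33.4. Beside PIN5A, LOC_Os01g69050 rose and LOC_Os01g69080 fell, with log2 fold changes of 1.69 and -1.28. Near PIN1D, LOC_Os12g04020 rose by 1.48 on the log2 scale.

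**Figure D5:**
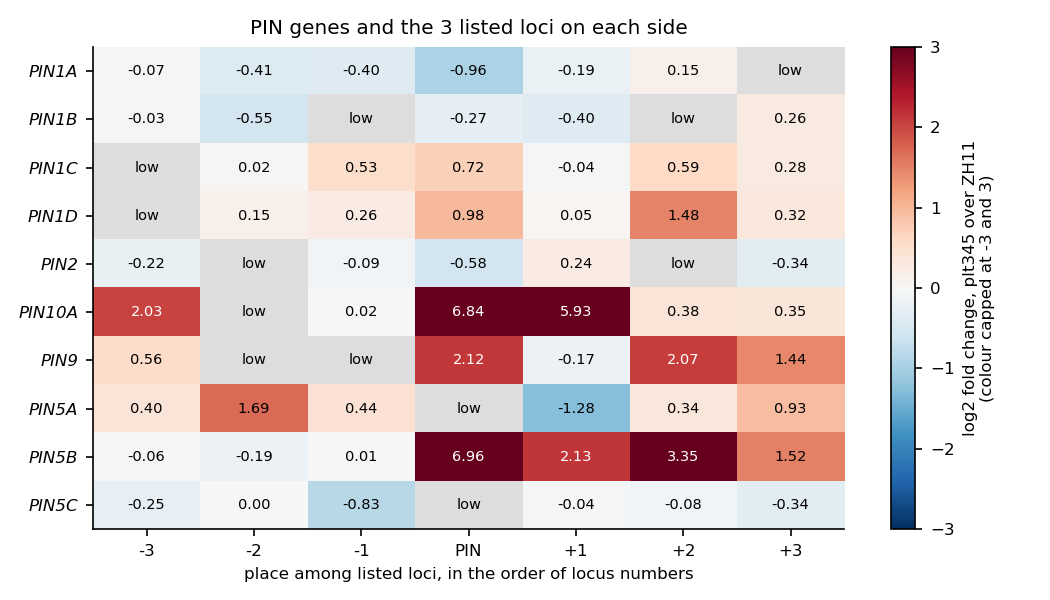
Log2 fold change between genotypes, positive where plt345 was higher, for each PIN gene (centre column) and the 3 listed loci before and after it in the order of locus numbers. Colour runs from blue (lower) to red (higher) and is capped at -3 and 3, the numbers are the values, and grey cells marked low had a mean under 10 and were not tested. The loci after PIN5B and the one after PIN10A are higher, loci beside PIN5A lie on both sides of 0, those beside PIN5C lie below 0, and those around PIN1A, PIN1B and PIN2 lie between -0.55 and 0.26.

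For the 7 PIN genes with a mean of at least 50, likeness was measured as the distance between centred log2 values over the 6 libraries, against 60 other PIN, auxin, PLT and marker genes. For genes well read in both genotypes it is led by the difference between the genotypes. The nearest gene to PIN1A was the root gene RCc3 (distance 0.179), which went from 58836 ± 2635 to 28035 ± 558. PIN1B was nearest to CDKB2;1, a mitotic kinase gene (0.054), and PIN2 to MCM4, of the replication helicase (0.165). PIN1C and PIN1D were both nearest to CESA4, a cellulose synthase gene of secondary walls (0.237 and 0.553). For PIN1D, PIN1C was almost as near, at 0.583. PIN5B and PIN10A were nearest to each other, at a distance of 2.28.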

How the data were processed

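Per the submitters' processing notes, reads were handled with HISAT2, featureCounts 2.0.0 and DESeq2 1.38.3. The sources used here give no parameters, strand setting, genome build or annotation. The authors deposited 1 table with size-factor-normalized counts per library, a signal that is never negative. It also gives the authors' log2 fold change, its standard error, a Wald score and p-values from DESeq2, per the file headers. Within 0.01 of a read, 100% of values were whole multiples of 1 read, so reads were recovered.

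The test was limma 3.58.1 in R 4.3.3 (trend, two-sided, Benjamini-Hochberg), on log2(value + 1) of genes with a mean of at least 10. Alternatives used edgeR 4.0.16 and DESeq2 1.42.0 on recovered reads. On simulated counts for this comparison, with 23166 genes, limma recovered 66% of 50 genes changed 1.25-fold and 94% of 50 changed 2-fold, with 14 false calls. In that simulation few genes were changed and all shared a common relative spread, while 68.0% of tested genes were called in the data. These rates therefore need not hold for the data. Libraries of a genotype differed by more than sampling noise (chi-square per gene 1.44 to 2.12) and were kept apart. Replicate numbers did not pair libraries.

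The PIN genes and the lists were chosen with earlier results of these data known. All 10 PIN genes are named, with PIN8, PIN10B, an auxin transport list, up to 2 synthesis genes per direction by adjusted p, and, from fixed markers and lists, the gene nearest in profile. Neighbouring loci, gene pairs, single marker genes, the sum of PIN1A, PIN1B and PIN2, and YUC1 were singled out after values were seen. Auxin response and AINTEGUMENTA-type promoter motifs were not searched, since no sequences were used here. One planned share is not reported here.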

Additional observations from a re-analysis of the deposited data

How the results depend on the processing

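All 8 tested PIN genes kept their direction and their call under each alternative that gave them a value: edgeR with 8130 genes higher and 7771 lower, DESeq2, the authors' deposited table, library totals, pseudocounts of 0.5 and 5, no filter, a mean of at least 50 (which leaves out PIN9), a replicate block and leaving out each library. Their largest adjusted p in any of these was 8.78e-04, for PIN1D. The size of the fit's log2 fold change depended on the tool and pseudocount for PIN5B (5.04 to 8.05), PIN10A (4.92 to 7.93) and PIN9 (1.495 to 2.26, and up to 2.36 without wild type replicate 2). PIN5A and PIN5C, untested at a mean of 10, passed with no filter (log2 fold changes 2.39 and 3.52) and in the authors' deposited table (2.66 and 4.74). When library totals replaced the size factors, 9338 genes were higher and 6016 lower, 60.8% of calls higher against 50.1%, and the median log2 fold change of all tested genes was 0.08 in place of -0.01. The falls were smaller with library totals, at -0.18 in place of -0.27 for PIN1B, -0.49 in place of -0.58 for PIN2 and -0.87 in place of -0.96 for PIN1A. The rises of the other tested PIN genes were slightly larger. The log2 ratio of the summed PIN counts was then -0.36 in place of -0.45, that of the long-loop genes -0.39 in place of -0.48, and that of the short-loop genes 5.80 in place of 5.72. Leaving out single libraries moved the first between -0.46 and -0.44. With the replicate block, 7941 genes were higher and 7972 lower and the PIN calls were the same. Same-numbered libraries shared only a number, their deviations from the genotype means correlating at 0.0240, 0.0193 and -0.000854, and not every library correlated best with its own number. Sums per transcript length were not run. Ratios against 2 wild type reads are limited by depth.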

Other observations

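The auxin synthesis gene YUC1 (LOC_Os01g45760, named by nomenclature) was, like PIN10A, nearly unread in wild type and higher in plt345, and it lies near PIN10A on chromosome 1, with 9 listed loci between them in the order of locus numbers. It had 2 reads in wild type as a whole against 83 in plt345, where it was at 22.6, 31.3 and 26.9 normalized counts. The depth-scaled ratio was 39.6, with a counting interval of 10.6 to 332, and the limma log2 fold change was 4.26 (95% interval 3.28 to 5.23), below the 6.84 (6.10 to 7.58) of PIN10A. Both genes were singled out after their values were seen, and no test of their nearness was made.

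Of 4460 genes with at most 3 reads in wild type as a whole, 55 reached a mean of at least 100 normalized counts in plt345, and PIN5B and PIN10A are among these. PIN5C, also with 2 wild type reads, is among the 353 that reached a mean of at least 10.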
